A study of Mus musculus with 6 samples.

Results

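Mitochondrial ribosomal protein genes were described in mouse embryonic fibroblasts (MEFs) before and after treatment with TNFα, a cytokine that activates the transcription factor NF-κB. The genes were chosen by symbol alone: every RefSeq coding transcript whose symbol opened with Mrpl or Mrps and a number was taken, with the transcript of the highest mean level kept for each symbol. This gave 76 of the 20275 coding genes in the table, of which 47 carried large subunit names (Mrpl) and 29 carried small subunit names (Mrps). The cells were primary wildtype (WT) MEFs of a C57BL/6x 129 background, isolated from embryos of day 13.5 and grown for 4 passages. All RNA came from such cells and differed only in TNFα at 20 ng/ml, which was absent (untreated) or present for 1.5, 6 or 24 hr. Each time was 1 library of polyadenylated RNA, so no difference below was tested against a spread between cultures. H3K4me3, the histone mark of active gene starts, was profiled with 1 ChIP-seq library and 1 input library of untreated MEFs.

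Mitochondrial ribosomes translate the small set of respiratory chain and ATP synthase subunits that mitochondrial DNA encodes. Their RNAs are transcribed inside the organelle, whereas all of their proteins are encoded in the nucleus, translated in the cytosol and imported, so the large number of protein genes described here must be supplied from many chromosomes at once. Some of these proteins have counterparts in bacterial ribosomes and others were added in the evolution of mitochondria. Nuclear genes of mitochondria are known to carry binding sites for NRF1, for the ETS factor GABP (NRF2) and for YY1 near their starts.

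Promoter sequence is shown for 6 members that the results below turn on: Mrpl32, Mrpl39 and Mrpl3, whose ratios to untreated were among the highest after TNFα, Mrpl48 and Mrpl23, whose ratios were the lowest at 1.5 and 24 hr, and Mrps11, which shares its start region with Mrpl46. Each line gives the 250 bases before the RefSeq start (GRCm38.p6 table), 5′ to 3′ on the strand of the gene. Capitals mark exact copies, on either strand, of the cores of the NRF1 site (GCATGCGC), of the ETS site (CCGGAAG) and of the YY1 site (AAGATGGCG). The places on mm9, found by exact match, were chr13:14705305-14705554 on the minus strand for Mrpl32, chr16:84735490-84735739 on the minus strand for Mrpl39, chr9:104955348-104955597 on the plus strand for Mrpl3, chr7:85927767-85928016 on the plus strand for Mrps11, chr7:149718687-149718936 on the plus strand for Mrpl23 and chr7:107731645-107731894 on the minus strand for Mrpl48.
Mrpl32: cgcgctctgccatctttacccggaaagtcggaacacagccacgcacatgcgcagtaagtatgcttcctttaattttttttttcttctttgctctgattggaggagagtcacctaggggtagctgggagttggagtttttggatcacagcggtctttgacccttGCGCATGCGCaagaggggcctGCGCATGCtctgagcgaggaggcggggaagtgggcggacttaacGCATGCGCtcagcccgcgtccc
Mrpl39: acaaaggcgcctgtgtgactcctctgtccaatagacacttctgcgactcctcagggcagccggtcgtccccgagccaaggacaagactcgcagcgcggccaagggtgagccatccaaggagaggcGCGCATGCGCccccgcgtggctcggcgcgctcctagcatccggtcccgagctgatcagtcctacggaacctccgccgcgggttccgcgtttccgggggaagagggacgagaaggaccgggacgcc
Mrpl3: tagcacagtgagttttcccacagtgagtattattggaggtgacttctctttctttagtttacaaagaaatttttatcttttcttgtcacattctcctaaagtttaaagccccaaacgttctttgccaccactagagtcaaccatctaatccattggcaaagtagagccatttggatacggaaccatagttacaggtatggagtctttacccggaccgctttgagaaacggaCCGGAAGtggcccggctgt
Mrps11: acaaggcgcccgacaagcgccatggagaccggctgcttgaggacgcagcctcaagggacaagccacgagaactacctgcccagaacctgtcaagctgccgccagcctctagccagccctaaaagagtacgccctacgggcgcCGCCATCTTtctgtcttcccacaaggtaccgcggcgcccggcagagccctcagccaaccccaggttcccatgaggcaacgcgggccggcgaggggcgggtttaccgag
Mrpl23: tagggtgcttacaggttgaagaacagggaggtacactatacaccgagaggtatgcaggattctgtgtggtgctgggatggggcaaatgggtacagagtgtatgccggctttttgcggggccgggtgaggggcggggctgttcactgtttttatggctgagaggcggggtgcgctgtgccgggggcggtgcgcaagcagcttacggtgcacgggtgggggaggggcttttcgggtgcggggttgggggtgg
Mrpl48: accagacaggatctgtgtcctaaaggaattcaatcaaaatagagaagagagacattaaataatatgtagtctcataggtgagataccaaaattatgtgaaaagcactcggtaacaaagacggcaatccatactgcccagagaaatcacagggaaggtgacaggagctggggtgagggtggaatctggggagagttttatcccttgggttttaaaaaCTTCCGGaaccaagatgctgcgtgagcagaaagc

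The deposited values are RPKM, reads per kilobase of exon scaled to the depth of the library, on a scale of their own, and can be set side by side between genes because they are per length. Each library has 2 columns (R1 and R2), which were averaged and are not replicates of the treatment. A gene entered the comparisons when it was above 0 in each of the 4 libraries with a mean above 100, which 6050 coding genes and 65 members did. The 11 other members were Mrpl1, Mrpl11, Mrpl17, Mrpl19, Mrpl35, Mrpl44, Mrpl50, Mrps14, Mrps22, Mrps25 and Mrps31. Mrpl50, at a mean of 99.1, lay just below this filter and Mrpl15, at 100.1, just above it. The filter is not neutral to direction: 11 members at or under 100 RPKM untreated, Mrps33, Mrpl32 and Mrpl3 among them, passed through their treated libraries, and Mrpl11, above 100 RPKM untreated, did not pass. Counts and medians over the 65 are therefore descriptions, and those over all 76, each above 0 in every library, are given beside them. The counts over all 76 still use the coding median of the 6050 genes that pass. No share of coding genes without the filter is given beside them, so they only describe the members. The steps of the low values put a median of about 341 reads behind a member in 1 column, from 27 for Mrpl1 to 3945 for Mrpl12, and 47 of the 76 members had over 100 reads in every column.

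TNFα treatment was visible in the libraries: Nfkbia, which encodes the NF-κB inhibitor IκBα, had log2 ratios to untreated of 4.50, 3.06 and 4.18 at 1.5, 6 and 24 hr. All 7 fibroblast markers passed the filter, with a summed level of 41988 to 88477 RPKM, while none of the epithelial or endothelial markers did and Epcam was listed at 0 in every library. Of the 4 leukocyte markers, Cd68 passed, and their sum ranged from 244 to 992 RPKM. Whole libraries were shifted against the untreated one. The median log2 ratio over the 6050 coding genes was 0.44, -0.74 and 0.10 at 1.5, 6 and 24 hr. Changes below are therefore given relative to this coding median unless they are said to be as deposited.

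In the untreated library the members that pass the filter had a median level of 297 RPKM, against 271 RPKM for all coding genes that pass. The highest member by mean level was Mrpl54, a protein of the stalk that receives translation factors, with 4025 RPKM untreated, 2407 at 1.5 hr, 2299 at 6 hr and 2430 at 24 hr. Mrpl52, Mrpl23, Mrpl12 and Mrps21 came next. Mrpl12, the stalk protein that also binds the mitochondrial RNA polymerase, had 1883 RPKM untreated and 2453, 999 and 2114 RPKM at the later times. The lowest member, Mrpl1, was at 15.2 RPKM untreated and at 8.53 to 32.5 RPKM in the treated libraries, and Mrpl44, Mrps31, Mrps14 and Mrpl19 were the next lowest. RNAs of the members were thus at widely spread levels, although less spread than those of coding genes that pass. The standard deviation of the log2 untreated level was 1.51 over the members that pass and 1.70 over coding genes that pass. In the untreated library the upper quartile of the 65 members was 4.18 times the lower quartile.

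Levels of all 76 members were more spread before treatment. The standard deviation of their log2 levels was 1.76 in the untreated library and 1.28, 1.53 and 1.34 at 1.5, 6 and 24 hr. The ratio of their upper to their lower quartile was 5.22 untreated and 3.07, 3.60 and 2.94 later. As deposited, 52 of the 65 members had their highest value at 1.5 hr and 55 had their lowest at 6 hr. Once each library was divided by its coding median shift, 14 members were highest at 1.5 hr, 30 at 24 hr and 18 untreated, and 26 were lowest at 6 hr and 31 untreated.

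**Figure D1:**
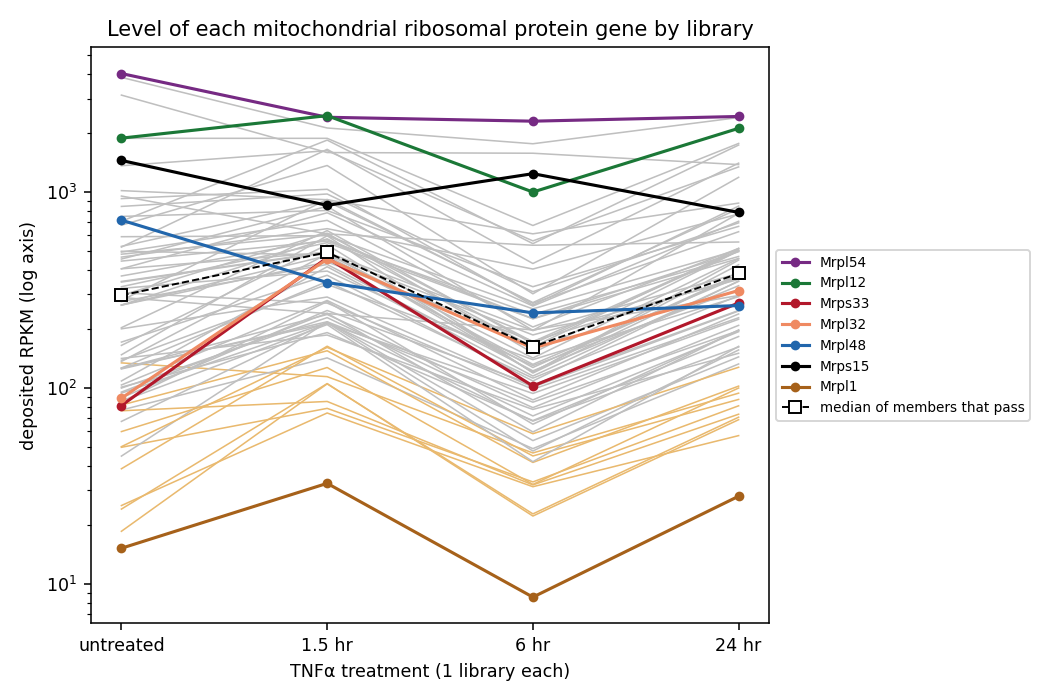
Deposited RPKM (log axis) of each of the 76 members in the 4 RNA libraries (horizontal axis, 1 library per time). Grey lines are members that pass the filter, light orange lines those that do not, coloured lines are named members, and open squares are the median of the 65 that pass, which went from 297 RPKM untreated to 492, 162 and 384 RPKM at 1.5, 6 and 24 hr.

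At 1.5 hr the members were, in the middle, above other coding genes. As deposited their median log2 ratio was 0.76, which is 0.32 relative to the coding median, and 43 of 65 members were above that median. At least 2-fold higher relative to the coding median were 14 members, or 21.5% of them, against 15.8% of all coding genes, and 6 (9.23%) were at least 2-fold lower against 17.4%. As deposited 25 members were at least 2-fold higher (29.8% of coding genes were) and 1, Mrpl48, was at least 2-fold lower (7.97% of coding genes). Over all 76 members the median relative to the coding median was 0.42, with 19 at least 2-fold higher and 6 lower.

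Mrps33, a small subunit protein with no bacterial counterpart, had the highest ratio at 1.5 hr. It had 81.2 RPKM untreated, 461 at 1.5 hr, 102 at 6 hr and 271 at 24 hr, which is 5.68-fold as deposited at 1.5 hr. Relative to the coding median its log2 ratios were 2.06, 1.07 and 1.64 at 1.5, 6 and 24 hr, with 2.10 and 2.01 in the R1 and R2 columns at 1.5 hr. All treated libraries were above the untreated one.

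Mrpl32, a large subunit protein matured in the matrix by the m-AAA protease, had 88.5 RPKM untreated, 454 at 1.5 hr, 159 at 6 hr and 314 at 24 hr. Its relative log2 ratios were 1.92, 1.59 and 1.72, and it had the highest ratio at 6 and 24 hr of the 65 members that pass the filter. Mrpl3, whose human ortholog is mutated in a combined respiratory chain deficiency, had 44.8 RPKM untreated, 217 at 1.5 hr, 53.7 at 6 hr and 144 at 24 hr, and its relative log2 ratios were 1.84, 1.00 and 1.58. Of the members that pass, Mrps33, Mrpl32 and Mrpl3 were the 3 at least 2-fold higher at every time. In the R1 column Mrpl3 was at 0.93 at 6 hr, under 2-fold.

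Mrpl53, a stalk protein, followed at 1.5 hr with 147 RPKM untreated and 597 at 1.5 hr, and its relative log2 ratios were 1.58, 0.43 and 1.26. Mrps28, the small subunit protein related to bacterial S1, was at 108 RPKM untreated and at 415, 115 and 350 RPKM at 1.5, 6 and 24 hr, with relative log2 ratios of 1.50, 0.82 and 1.59. Mrpl39, which resembles threonyl-tRNA synthetases, had relative log2 ratios of 1.38, 0.80 and 1.64. These members stood above untreated at 1.5 and 24 hr, while their 6 hr libraries as deposited lay near the untreated level, at 0.807 to 1.06 times it.

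The lowest member was Mrpl48, a protein of the central protuberance of the large subunit. It had 718 RPKM untreated, 345 at 1.5 hr, 241 at 6 hr and 263 at 24 hr, and its relative log2 ratios were -1.50, -0.83 and -1.55. All 3 treated libraries were below the untreated one. Its span overlaps the coding gene D630004N19Rik on the same strand, and the part of that gene in its value was not tested. Mrpl23, a protein of the rim of the peptide exit tunnel, had 3124 RPKM untreated, 1589 at 1.5 hr, 1577 at 6 hr and 1380 at 24 hr, and its relative log2 ratios were -1.42, -0.25 and -1.28. In the untreated library its R1 column was 3641 RPKM and its R2 column 2608 RPKM, and both lay above every treated column.

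Mrpl52 had 3848 RPKM untreated and 2122, 1763 and 2400 RPKM at 1.5, 6 and 24 hr, with relative log2 ratios of -1.30, -0.39 and -0.78. Mrpl54 was at -1.18, -0.07 and -0.83, and Mrpl37, a large subunit protein with no bacterial counterpart, was at -1.08, -0.09 and -0.88. Mrps15, the counterpart of the small subunit protein S15 of bacteria, was the one of the 6 members at least 2-fold lower at 1.5 hr that stood above the coding median at 6 hr. It had 1449 RPKM untreated and 855, 1240 and 786 RPKM at 1.5, 6 and 24 hr, with relative log2 ratios of -1.20, 0.51 and -0.98. At 1.5 hr its columns gave -1.44 and -0.99.

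**Figure D2:**
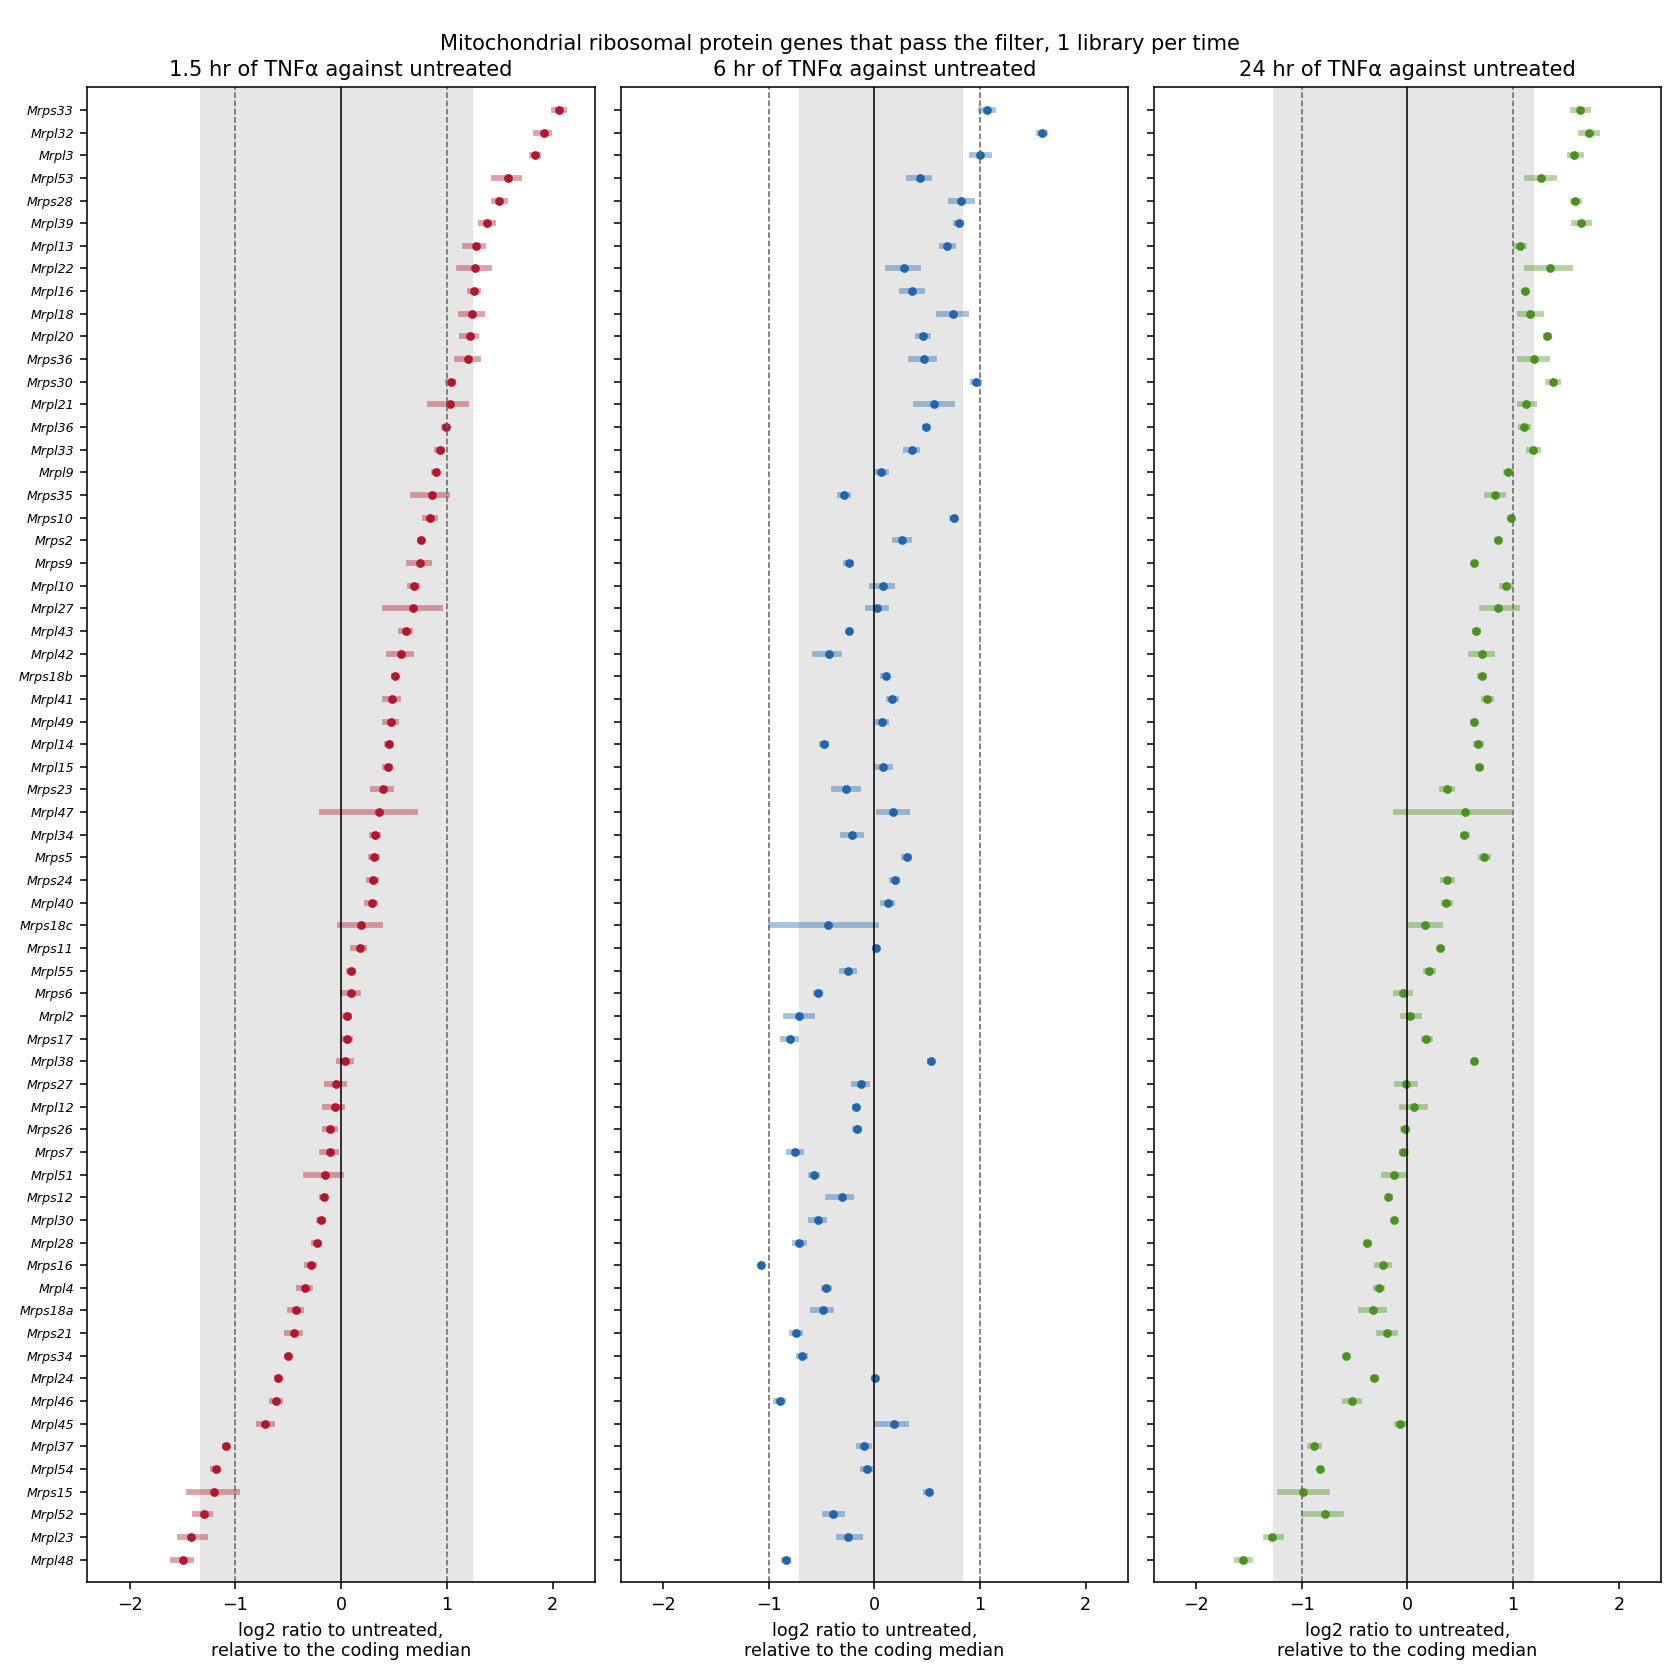
log2 ratio of each library to the untreated one, relative to the coding median, for the 65 members that pass the filter, ordered by the 1.5 hr value. Points are the mean of both columns, coloured bars run from the R1 to the R2 value, grey bands hold the middle 80% of all coding genes that pass and dashed lines mark 2-fold. At 1.5 hr 14 members lie past 2-fold on the right and 6 on the left, at 6 hr 3 and 1, and at 24 hr 16 and 2.

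At 6 hr the deposited values of the members were below untreated, with a median log2 ratio of -0.72, and so were those of coding genes as a whole. Relative to the coding median the members had a median of 0.02. As deposited 21 members were at least 2-fold lower (31.5% of coding genes) and 0 were at least 2-fold higher (1.83%). Relative to the coding median 3 members (4.62%) were at least 2-fold higher against 7.21% of coding genes, and 1 was at least 2-fold lower against 3.26%. Over all 76 members these counts were 5 and 1. The 1 lower member was Mrps16, a small subunit protein mutated in a human respiratory chain deficiency, at 925 RPKM untreated, 1032 at 1.5 hr, 264 at 6 hr and 847 at 24 hr. Its relative log2 ratio was -1.07 at 6 hr and -0.28 and -0.23 at 1.5 and 24 hr, so its 6 hr library stood apart from the other 3. Mrpl46 (-0.90), Mrpl48 (-0.83) and Mrps17 (-0.80) were the next lowest at 6 hr.

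At 24 hr the median of the members was 0.65 as deposited and 0.55 relative to the coding median. At least 2-fold higher relative to the coding median were 16 members (24.6%) against 14.4% of coding genes, and 2 (3.08%), Mrpl48 and Mrpl23, were at least 2-fold lower against 15.2%. As deposited these counts were 19 (16.8% of coding genes) and 2 (12.8%). Over all 76 members the relative median was 0.63, with 21 at least 2-fold higher and 2 lower. Mrpl33 and Mrpl36, counterparts of small bacterial large subunit proteins, were past 2-fold at 24 hr, with relative log2 ratios of 1.19 and 1.10, and just under it at 1.5 hr, with 0.93 and 0.99.

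Over all 3 times, 23 of 65 members (35.4%) were at least 2-fold from the coding median at 1 or more times, against 40.7% of coding genes. Of these, 11 were higher at 1.5 and 24 hr but not at 6 hr, 3 were higher at every time, 2 were higher at 24 hr only, 4 were lower at 1.5 hr only, 2 were lower at 1.5 and 24 hr and 1 was lower at 6 hr only. The other 42 members stayed within 2-fold at every time. The 3 ratios share 1 untreated library, so likeness between them is not independent. The 24 hr and 1.5 hr libraries can be set against each other without it: the standard deviation of their log2 ratio was 0.19 among the members and 0.36 over coding genes, and 0 of 65 members were 2-fold apart, against 1.79% of coding genes. Between the 1.5 hr and 6 hr libraries it was 0.60 among the members, and 8 members were 2-fold apart, against 20.3% of coding genes.

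The ratios differed with the level of the member. With all 76 members ranked by mean level over the 4 libraries and no filter, the 26 highest, at 392 to 2790 RPKM, had median relative log2 ratios of -0.15, -0.23 and -0.08 at 1.5, 6 and 24 hr, and the 25 lowest, at 21.0 to 172 RPKM, had 0.75, 0.17 and 0.78. The 25 between them had 0.61, 0.13 and 0.65, close to the lowest. Across the 76 members the correlation of the relative log2 ratio with the log2 mean level was -0.51, -0.33 and -0.47 (Pearson). Across the 14272 coding genes above 0 in every library it was 0.16, 0.07 and 0.17. With the log2 untreated level, which is also the denominator of the ratio, it was -0.73, -0.54 and -0.70 across members and -0.07, -0.12 and -0.06 across the 14272. Among genes that pass the filter it was -0.77, -0.55 and -0.76 across the 65 members. Across the 6050 coding genes that pass it was -0.40, -0.36 and -0.40. The filter takes in genes low untreated only where treated libraries are high, which favours a negative value. The values among genes that pass therefore do not show whether the trend was particular to the members. Genes are not replicates, and the mean level also holds the untreated value, so these values only describe the members in these libraries.

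Base composition moved with the ratios as well. Of the 65 that pass, the 22 members of lowest transcript GC content (41.8% to 50.2%) had median relative log2 ratios of 0.84, 0.28 and 0.96, and the 21 of highest (54.4% to 60.8%) had -0.06, -0.25 and 0.02. At 24 hr 11 of the 16 members at least 2-fold higher were among those 22. The correlation with GC content was -0.48, -0.41 and -0.46 across members and -0.51, -0.32 and -0.50 across 5931 coding genes with a GC value, so the members shared a trend of the whole table. Centred on coding genes of like GC content, the median of the members was 0.35, 0.02 and 0.49, and 9, 2 and 11 members were at least 2-fold higher (13.8%, 3.08% and 16.9%), against 11.3%, 5.21% and 11.2% of coding genes. In the same centring 4, 1 and 1 members were at least 2-fold lower, against 11.4%, 2.71% and 9.54%. In that centring Mrps33 was at 1.19 and Mrpl32 at 0.97 at 1.5 hr. The part of GC content in the ratios was not tested.

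**Figure D3:**
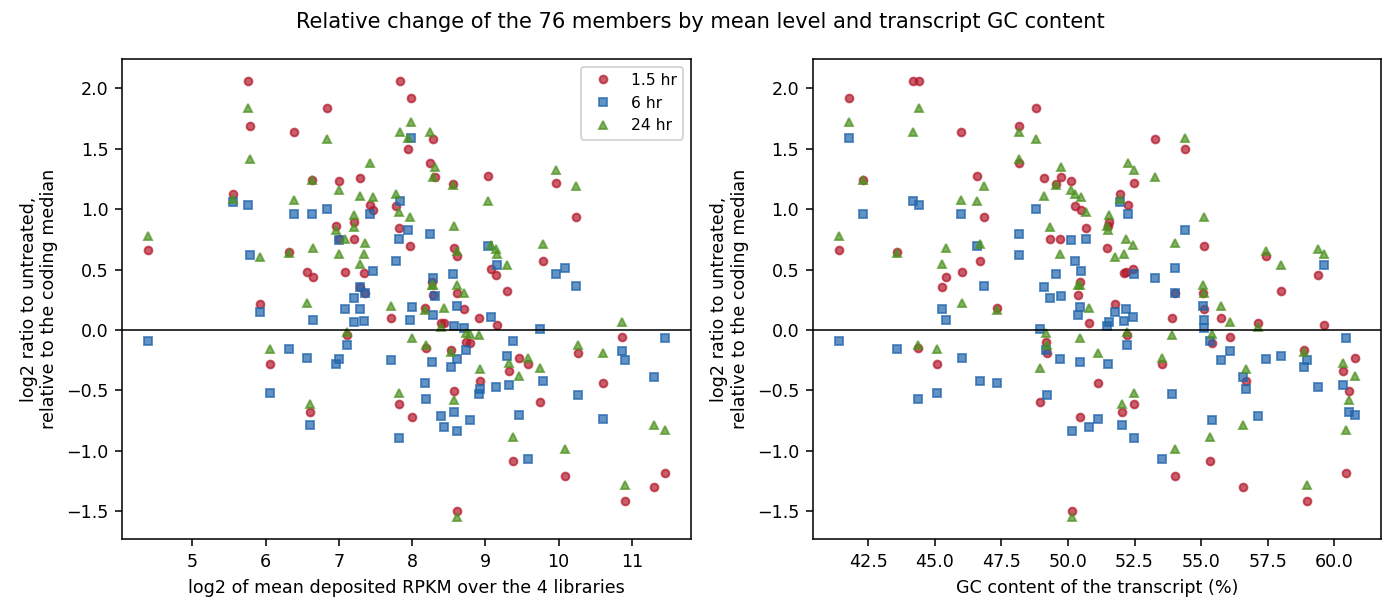
Relative log2 ratio of all 76 members at 1.5 hr (red circles), 6 hr (blue squares) and 24 hr (green triangles) against the log2 mean level over the 4 libraries (left) and against the GC content of the transcript in percent (right). Points fall from left to right with wide scatter in both panels, with correlations of -0.51, -0.33 and -0.47 on the left and -0.50, -0.39 and -0.46 on the right.

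At 1.5 hr 9 of the 11 members below the filter were above the coding median and 5 were at least 2-fold above it: Mrps31, Mrps14, Mrps22, Mrpl50 and Mrpl44. Mrps31 had 18.5 RPKM untreated and 105, 22.7 and 70.8 RPKM later, with relative log2 ratios of 2.06, 1.03 and 1.83. Mrpl11, a protein of the base of the stalk, was the lowest of the 11 at each time, with -0.68, -0.79 and -0.62. These genes enter only the counts over all 76.

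Grouped by role, members on both sides of the coding median were found in each region of the large subunit examined. The stalk proteins were split, with Mrpl53 at 1.58 and Mrpl54 at -1.18 at 1.5 hr, and Mrpl12 at -0.06 and Mrpl10 at 0.69 between them. Around the peptide exit tunnel Mrpl22 was at 1.26 and Mrpl23 at -1.42, with Mrpl24 at -0.60, Mrpl45 at -0.72 and Mrpl47 at 0.36. In the central protuberance Mrpl18, the counterpart of a protein that binds ribosomal RNA there, was at 1.23 and Mrpl48 at -1.50. The values of Mrpl47 differed by 0.89 between columns at 1.5 hr, the largest difference of any member at that time. These groups were formed after the values were seen.

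The 3 paralogs of bacterial S18, all of them found in mitochondrial ribosomes, stayed within 2-fold. At 1.5, 6 and 24 hr Mrps18a was at -0.43, -0.48 and -0.33, Mrps18b at 0.51, 0.11 and 0.70 and Mrps18c at 0.19, -0.44 and 0.16. The 6 hr columns of Mrps18c differed by 1.00. Mrps12, which lies at the decoding site, had 405 RPKM untreated, 492 at 1.5 hr, 196 at 6 hr and 384 at 24 hr, and its relative log2 ratios of -0.16, -0.31 and -0.18 were near the coding median. Mrps30, which in spite of its symbol is part of the large subunit, was at 1.04, 0.96 and 1.38. Mrps36, which is now known as a subunit of the oxoglutarate dehydrogenase complex, was at 1.20, 0.47 and 1.20, so 1 of the 14 members higher at 1.5 hr encodes a protein no longer counted in the mitochondrial ribosome.

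The 40 passing members with Mrpl symbols had medians of 0.45, 0.07 and 0.64, and the 25 with Mrps symbols 0.19, -0.16 and 0.31. The latter include Mrps30 and Mrps36, and without them the medians were 0.17, -0.24 and 0.18 (23 genes). These 23 still include Mrps18a, whose product also sits in the large subunit, so they are not a set of small subunit proteins alone. The 40 members with a bacterial counterpart had medians of 0.34, 0.05 and 0.59, and the 24 listed as specific to mitochondria 0.16, -0.11 and 0.37. Mrps18a and Mrps18b were listed as specific, although both are paralogs of bacterial S18. The interquartile ranges of these groups overlapped at every time. Of the 6 members at least 2-fold lower at 1.5 hr, Mrpl48, Mrpl52, Mrpl54 and Mrpl37 were specific to mitochondria and Mrpl23 and Mrps15 were not.

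The genes of the cytosolic ribosome were at far higher levels, with a median of 10376 RPKM untreated over 78 genes. Their median relative log2 ratios were 0.10, -0.42 and 0.16 at 1.5, 6 and 24 hr, with 10 genes at least 2-fold higher and 7 lower at 1.5 hr. Among coding genes that pass, 15.8% were at least 2-fold higher and 17.4% lower at 1.5 hr. Other proteins of the mitochondrial ribosome outside the symbol rule were on both sides. Chchd1, a small subunit protein, was the highest of these 7, at 1.26, 1.09 and 1.76. Ict1, a release factor built into the large subunit, was the lowest at 1.5 hr, at -1.36, and Dap3, a GTP-binding small subunit protein, was the lowest at 6 hr, at -1.03. At 1.5 hr 3 of the 7 were past 2-fold on the higher side and 2 on the lower side.

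Of 17 mitochondrial aminoacyl-tRNA synthetases, which charge the tRNAs that these ribosomes use, 7 passed the filter, with medians of -1.01, 0.04 and -0.86. At 1.5 hr 4 of the 7 were at least 2-fold lower and 0 higher, against 17.4% and 15.8% of coding genes that pass. The median transcript GC content of the 7 was 58.0%, against 52.1% for the members that pass and 53.5% for coding genes that pass. Ratios at 1.5 hr fell with GC content across coding genes, and its part in the values of the synthetases was not tested. The synthetases below the filter are not described here. The lowest was Vars2, the valyl enzyme, with 349 RPKM untreated, 95.1 at 1.5 hr, 229 at 6 hr and 90.9 at 24 hr. Of 11 translation factors 3 passed, and Tufm, the elongation factor that brings tRNAs to the ribosome, was at 0.03, -0.57 and 0.00. Mtif3, an initiation factor, was at -1.24 and Mrrf, the recycling factor, at 0.47 at 1.5 hr. The translation factors below the filter ran from -0.40 for Guf1 to 1.71 for Gfm1 at 1.5 hr, and Guf1 was the only one of them below the coding median then.

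Of the 18 listed genes of mitochondrial transcription and ribosome assembly that the table lists, 3 passed, and none of these was 2-fold from the coding median at any time. Polrmt, the mitochondrial RNA polymerase, was the lowest at 1.5 hr, at -0.92, and Eral1, an assembly GTPase, the highest, at -0.22. Tfam, which packages mitochondrial DNA, was below the filter at 5.70 to 35.5 RPKM, with relative log2 ratios of 1.14, -0.32 and 0.60. The other genes of this list below the filter are not described here. Of 9 regulators of mitochondrial biogenesis 4 passed. Myc, a transcription factor that acts on ribosome and mitochondrial genes, was at 133 RPKM untreated and at 426, 204 and 326 RPKM later, with relative log2 ratios of 1.24, 1.36 and 1.19. Pprc1, a coactivator of NRF1, was at -1.04, 0.15 and -1.04. The others that passed were Yy1, which encodes the factor of the YY1 site, at -0.02, 0.45 and -0.01, and Esrra, at -0.40, -0.40 and -0.24. Nrf1 and Gabpa, which encode factors that bind the NRF1 and ETS sites in capitals above, were below the filter, at 29.0 to 128 RPKM and 21.8 to 81.9 RPKM. Their relative log2 ratios were 0.57, -0.38 and 0.55 for Nrf1 and 1.31, 0.59 and 1.00 for Gabpa. Also below the filter, Gabpb1 was at 1.59 and Ppargc1b at -0.83 at 1.5 hr, and Ppargc1a was at only 0.141 to 0.771 RPKM.

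**Figure D4:**
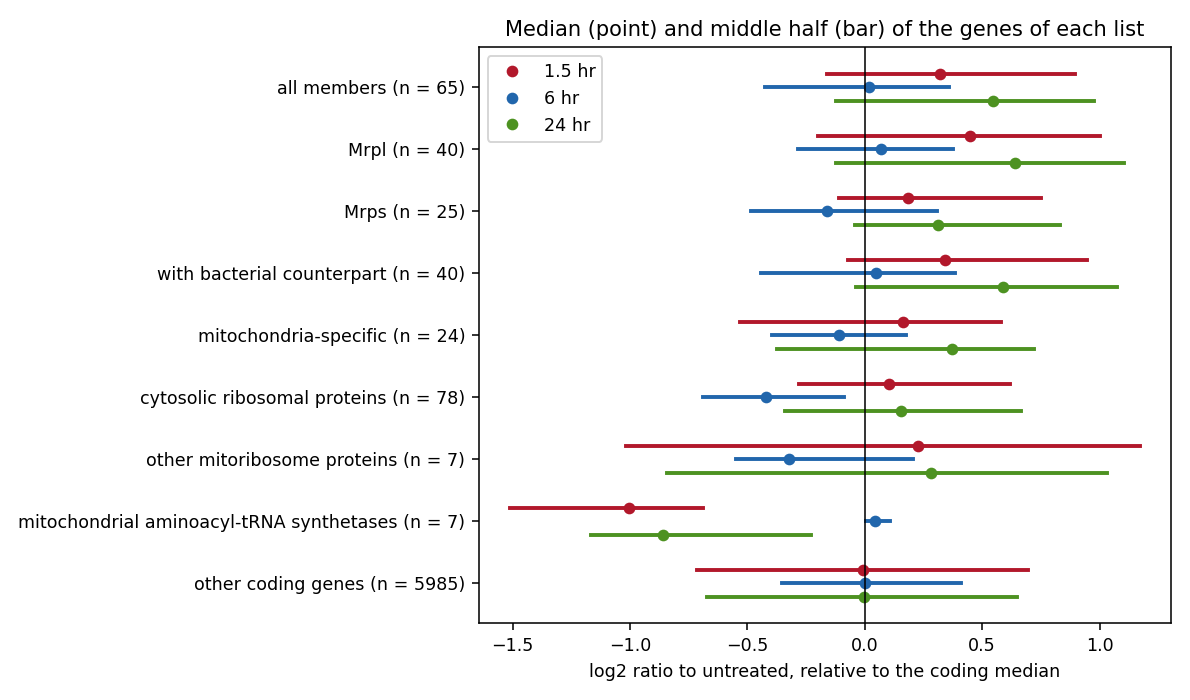
Relative log2 ratio at 1.5, 6 and 24 hr for the members, their subgroups and other lists. Points are medians over the genes that pass the filter and bars run from the lower to the upper quartile. The members have medians of 0.32, 0.02 and 0.55, the cytosolic ribosomal proteins 0.10, -0.42 and 0.16 and the synthetases -1.01, 0.04 and -0.86.

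Nearly all members carried H3K4me3 at the start before treatment. A deposited peak lay within 1 kb of the start of 75 of 76 members, which is 98.7% (exact 95% binomial interval 92.9% to 99.97%, counting error only). Among coding genes that pass the RNA filter it was 5306 of 5928 with an annotated start, or 89.5%. The same 75 members had a peak that covered the start. The 1 member without a peak was Mrps28, whose 1 annotated coding transcript starts 78421 bp from the nearest peak. This says only that no peak is listed near that annotated start, and whether the cells use another start was not tested. With a fold enrichment of at least 40 over the input, a peak was at the start of 72.4% of all 76 members. Among genes that pass the RNA filter it was 70.8% of the 65 members and 62.2% of coding genes.

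Member peaks were as enriched as others and shorter. The 75 members with a peak, whether or not they pass the RNA filter, were set beside the other coding genes that pass and have a peak. The median fold enrichment was 51.3 for members and 50.7 for the others, whereas the median length was 2880 bp for members and 3755 bp for the others. The summit lay a median of 214 bp downstream of the start for members and 304 bp for the others. The highest fold enrichment was at Mrpl32, at 144, with a peak of 2711 bp that also covers the start of Psma2 on the other strand. Psma2 starts 217 bp upstream of Mrpl32, and the summit lay further upstream, at -381 bp from the Mrpl32 start. The summit was thus outside the sequence shown above, although the peak covers that sequence. How much of this peak belongs to either gene was not tested. Mrps17, at 136, and Mrps10, at 127, followed, and Mrpl46 and Mrps11 share a peak at 120. The lowest were Mrpl54 at 22.8, Mrpl23 at 23.7, Mrps6 at 24.1 and Mrps18c at 25.4. Mrpl54 and Mrpl23 were thus among the highest members in RNA and the lowest in fold enrichment. With 1 ChIP library these differences have no spread to be set against.

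**Figure D5:**
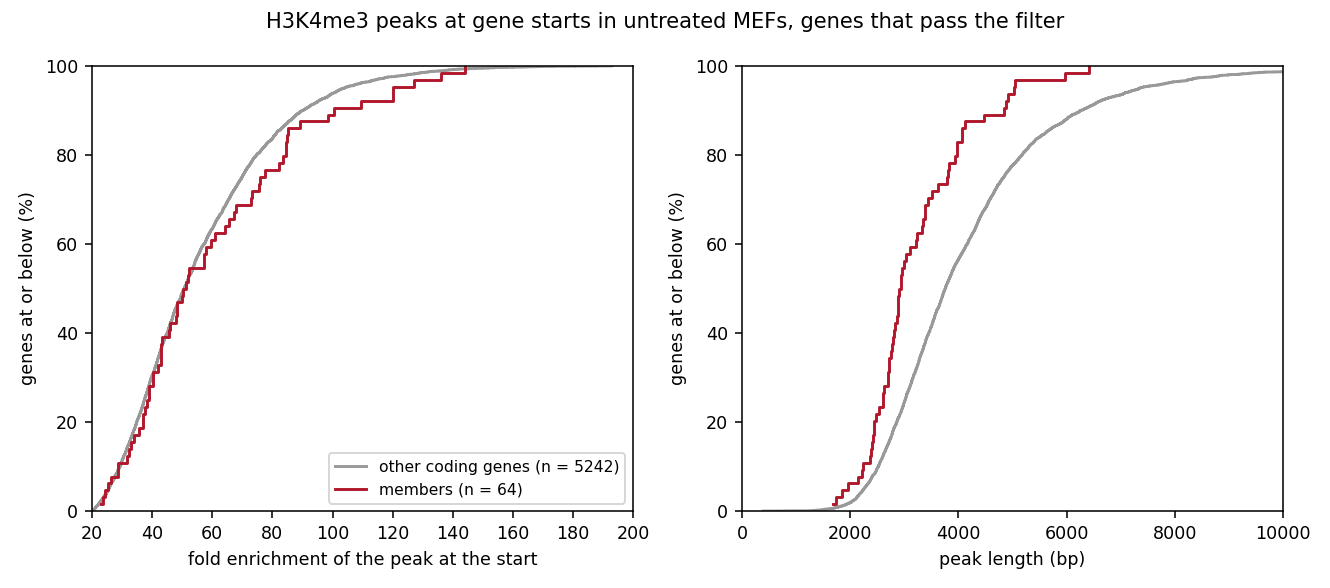
Share of genes (vertical axis, percent) with a peak at the start at or below a given fold enrichment (left) or peak length in bp (right), for the 64 members and 5242 other coding genes that pass the RNA filter and have a peak. The curves run together for fold enrichment and the members lie to the left for length.

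Many members share a start region with another gene. A coding gene on the other strand started within 1 kb, on either side of the start, for 27 of 76 members (35.5%). Among genes that pass the filter it was 25 of 65 members (38.5%) against 17.0% of coding genes. The others of the 27 aside, the partner started upstream, so that the 2 genes point apart, for 18 of 76 members (23.7%). This was so for 17 of the 65 (26.2%) and for 12.3% of coding genes that pass. Mrpl46 and Mrps11, which encode a large and a small subunit protein, start 53 bp from each other. Their relative log2 ratios were -0.62, -0.90 and -0.53 for Mrpl46 and 0.17, 0.02 and 0.31 for Mrps11, so genes of a shared start region lay on different sides of the coding median at every time. Mrpl32 starts 217 bp from Psma2, a proteasome subunit gene, and there both genes were higher: Psma2 was at 1.75, 0.97 and 1.49. Mrps12 starts 171 bp from Sars2, the mitochondrial seryl-tRNA synthetase gene, which was at -1.54, 0.02 and -1.09. Mrpl49 starts 135 bp from Fau, which encodes a cytosolic small subunit protein, and they were at 0.47 and -1.09 at 1.5 hr. The spans of 16 members overlap another coding gene, 14 of them on the opposite strand. The libraries were directional, but whether the counting used strand is not given in the sources used here, so values of such members may hold reads of the partner.

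RefSeq promoters, 250 bases before to 50 after the start, were matched for 67 of the 76 members and numbered 73. They include promoters of members below the RNA filter, whereas the coding genes set beside them all pass it. All 73 were found once in mm9, and each start lay in an H3K4me3 peak. The ETS core (CCGGAAG) was in 32.9% of member promoters, against 19.0% of the 5643 promoters of coding genes that pass the filter. The NRF1 core (GCATGCGC) was in 11.0% against 5.67%, and the YY1 core (AAGATGGCG) was also in 11.0%, against 3.70%. The Sp1 box (GGGCGG) was in 52.1% against 66.8%, the CCAAT box (CCAAT) in 41.1% against 37.5%, the CRE (TGACGTCA) in 2.74% against 2.87% and the TATA box (TATAAA) in 6.85% against 6.84%. The NF-κB consensus was in 2.74% against 7.78%. None of the NRF1, ETS and YY1 cores was present in 53.4% of member promoters. All but the NF-κB consensus were searched on both strands as exact letters. The NF-κB consensus was a pattern with variable bases (GGGRNNYYCC), searched on the strand of the gene only, so sites on the other strand can be missed. A match is a description and not a bound site.

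Exact copies of the NRF1 core were found in Mrpl9, Mrpl10, Mrpl17, Mrpl22, Mrpl32, Mrpl33, Mrpl39 and Mrps18b. In Mrpl32 and Mrpl39, as shown above, forward and reverse copies overlap in the palindrome of 10 bases. The relative log2 ratios of these members at 1.5 hr ran from 0.48 for Mrpl17, which is below the filter, to 1.92 for Mrpl32. Each was above the coding median at that time, as were 52 of all 76 members. At 6 hr Mrpl17 was below it, at -0.23. The ETS core was shared by members on both sides, among them Mrps33 at 2.06, Mrpl3 at 1.84, Mrpl52 at -1.30 and Mrpl48 at -1.50. The YY1 core was in Mrps11 but, within the window, not in Mrpl46, and was also in Mrpl37 at -1.08. No copy of these 3 cores was in the window of Mrpl23. These values are descriptions of members chosen by symbol, and no test was made of the motifs against the ratios.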

How the data were processed

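Per the labels and the study's methods, the authors sequenced directional polyadenylated RNA, mapped reads to mm9 with TopHat and deposited RPKM values per RefSeq transcript in 2 columns per library. ChIP-seq reads were mapped with Bowtie and the deposited peaks were called with MACS against the input, each with its tag count, a MACS score (a log10 p-value rescaled), a fold enrichment ratio and an FDR in percent. The columns were matched to times through the study's list of mapped reads. For the 24 hr library, 1 label field describes ChIP, whereas the title, treatment and source are those of RNA.

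Members and lists were chosen with earlier results of these data known. Columns were averaged per library. Genes with a mean deposited RPKM above 100 and above 0 in every library were used, and log2 ratios to untreated were centred on the median of these coding genes, with no pseudocount and no test, since there is 1 library per time. The 2-fold threshold follows the study. Named members were the 5 highest and 5 lowest by level, the 4 highest and 4 lowest at each time, those past 2-fold in both columns, those nearest the filter, those without a peak and Mrpl12, Mrps12, Mrps18a, Mrps18b, Mrps18c, Mrps30 and Mrps36, and values of others stand where a group, partner or motif was described, chosen after their values were seen. GC content and starts came from the GENCODE annotation of mm9, and GC was found for 98.0% of coding genes and 100% of members that pass. Promoters came from RefSeq (GRCm38.p6). The steps were tested on simulated data. Python 3.11.15, pandas and scipy were used. Depth limits the low members, and intervals cover counting error only.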

Additional observations from a re-analysis of the deposited data

Results flagged for a closer look

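The median log2 ratio of the 65 members as deposited lay on opposite sides of 0 at different times: the values were 0.764, -0.723 and 0.650 at 1.5, 6 and 24 hr. The difference between times was not tested, since there was 1 library per time. The coding median moved the same way, with 0.44, -0.74 and 0.10, and after centring on it the members had 0.32, 0.02 and 0.55.

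Mrps15 was flagged because it was more than 2-fold below the coding median at 1.5 hr, at -1.20, and above it at 6 hr, at 0.515, with both columns on the same side at each time. This difference was not tested either. As deposited its 6 hr library was closer to the untreated one than its 1.5 and 24 hr libraries were.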

How the results depend on the processing

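No paired analysis was possible because each time had 1 library. Without replicates, the distance of the single columns from their mean stood in for the spread of a median, so neither column alone can move one, and counts were allowed 1.5 times. Shares of coding genes under other settings are given only for the centring on GC content, above. The other counts here therefore describe the members alone.

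As deposited, the 6 hr median of -0.72 turned to 0.159 when libraries were scaled to the same sum over coding genes, to 0.0931 with the median of ratios and to 0.0123 with the trimmed mean of log ratios. Scaling to the sum gave 0.50 at 1.5 hr, with 5 members at least 2-fold lower there in place of 1, and at 6 hr 4 higher in place of 0 and 0 lower in place of 21. The median of ratios and the trimmed mean gave 0.31 and 0.33 at 1.5 hr and 0.55 and 0.55 at 24 hr. At 1.5 hr they gave 14 and 15 members at least 2-fold higher and 6 and 6 lower, and at 6 hr 4 and 2 higher and 0 and 1 lower.

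Restricting to a mean above 1000 RPKM left 9 members and turned the medians: as deposited they were -0.000271, -0.91 and -0.087 at 1.5, 6 and 24 hr, and relative to the coding median -0.34, -0.033 and -0.10. Counts as deposited were then 2, 0 and 2 higher and 0, 3 and 1 lower. Relative counts among these 9 were 2, 0 and 2 higher and 4, 0 and 1 lower. With no filter (76 members) the medians were 0.86 and 0.73 as deposited at 1.5 and 24 hr, and 0.45, 0.034 and 0.67 relative, with 5 higher at 6 hr. A pseudocount of 100 gave 0.54, -0.44 and 0.40 as deposited and 0.21, 0.034 and 0.32 relative. Counts higher were then 12 and 7 as deposited at 1.5 and 24 hr, and 5, 0 and 5 relative, and counts lower 0 at 1.5 hr and 10 at 6 hr as deposited. A fold threshold of 1.5 gave 38, 1 and 34 higher and 6, 40 and 6 lower as deposited, and 24, 9 and 32 higher with 9 and 6 lower at 6 and 24 hr relative. Column R1 alone gave 2 members lower at 1.5 hr as deposited.

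The following were chosen after seeing the data. Centring within bins of GC content gave 9 members higher at 1.5 hr and 1 lower at 24 hr. Centring within bins of untreated level, which shares the untreated library with the ratios, gave 0.33 at 24 hr, 9 and 1 higher and 1 and 0 lower at 1.5 and 6 hr, and 1 lower at 24 hr, and it turned Mrpl18 to -0.21 at 1.5 hr and -0.18 at 24 hr. All 76 members against the same coding median gave relative medians of 0.42 and 0.63 at 1.5 and 24 hr and 5 higher at 6 hr. Without the overlapping members (52 left) the medians were 0.56 as deposited and 0.46 relative at 24 hr and 0.039 relative at 6 hr, with 0 lower at 1.5 hr and 1 at 24 hr as deposited and 1 at 24 hr relative. The causes were not tested beyond what each setting removes. Peaks of at least 40-fold enrichment lowered the H3K4me3 share to 72.4%, and the other windows and starts left it at 98.7%. Of 489 alternative values of the 52 named relative ratios past 2-fold, 487 kept their direction and 397 stayed past 2-fold. This agreement was partly fixed in advance: members past 2-fold in both columns were named for it, so a single column could not turn those. The 2 values that turned were those of Mrpl18 in the centring on untreated level.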
